A study of Mus musculus with 15 samples.

Results

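The microtubule motors of the trigeminal ganglion (TG) were followed in 15 mouse TG, 5 from each of 3 groups. The gene set was chosen by name: protein-coding genes of the numbered kinesin (Kif) family, the kinesin light chains Klc1 to Klc4, the cytoplasmic dynein subunits (Dync1, Dync2, Dynll, Dynlt and Dynlrb genes) and the dynactin subunits Dctn1 to Dctn6, leaving out Kif11, Kif20a and Kif23. The rule found 62 of the 55573 genes in the deposited table, and 49 of them had a mean of at least 10 counts over the 15 samples and are the members described here. The rule uses names and mean counts only, but the set was chosen with earlier results of these data known. One member, Kif1bp, carries the Kif name but encodes a KIF1-binding protein and not a motor. All groups were 10-week-old male CD1 mice whose right cornea had been injured by removing the epithelium and anterior stroma inside a 2 mm circle, and the right TG was taken on day 12. Eyes received vehicle, RvD6 (resolvin D6, a lipid mediator made from docosahexaenoic acid, labelled as the standard) or RvD6si (a stereoisomer of RvD6, labelled as the isomer) 3 times a day. No uninjured ganglia were analysed here, so the vehicle group is injured and received no lipid, and is not a normal state. The ganglion is a mixed tissue in which only some of the neurons serve the cornea.

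Kinesins walk mainly toward the plus ends of microtubules and carry vesicles, mitochondria and cytoskeletal cargo from the cell body to the axon terminal. Cytoplasmic dynein-1 walks the other way and returns signalling endosomes and used organelles to the cell body, with dynactin as the cofactor that makes it processive and links it to cargo. Sensory neurons of the TG depend on both because their corneal axons are very long, and inherited defects of KIF1A, KIF5A, DYNC1H1 and DCTN1 cause neuropathies or motor neuron diseases.

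The libraries held 4125962 to 9903396 counted reads, with a median of 7756538. Sensory neuron, satellite glia and Schwann cell markers were all detected, in every group. The p-values below set a difference between groups against the spread between ganglia of the same group. The edgeR fit estimated that spread from all 15 samples together. Some libraries stood apart by markers of other cells. The summed level of 12 granulocyte precursor genes was 788 to 2543 CPM (counts scaled to the size of the library) in RvD6 and 2216 CPM in RvD6si replicate 15, against 137 to 690 CPM in vehicle and 66.0 to 146 CPM in the other 4 RvD6si samples. Skeletal muscle genes reached 2156 and 3345 CPM in RvD6 replicates 8 and 9 and were at most 446 CPM elsewhere. Pituitary genes reached 3972 CPM in vehicle replicate 3 and 2453 CPM in RvD6 replicate 10 and were at most 1013 CPM elsewhere. The sensory neuron list was lowest in RvD6 replicates 9 and 10, at 5114 and 5130 CPM, against 6534 to 8899 CPM elsewhere. In a whole ganglion, fewer cells of a type and less RNA per cell cannot be told apart.

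The motor transcripts spanned more than 3 orders of magnitude in vehicle TG when expressed per exonic length, as RPKM (reads per kilobase of exon, scaled to the size of the library). The highest was Klc1, the main neuronal light chain of kinesin-1, at 406 ± 43.5 RPKM (SD, n = 5). The small dynein and dynactin subunits Dynlt3, Dctn3 and Dynlrb1 followed at 318 ± 56.7, 286 ± 29.5 and 200 ± 18 RPKM. These 4 genes lay above every motor heavy chain. Among motor heavy chains Kif21a, a kinesin-4 that restrains microtubule growth, stood at 142 ± 23.9 RPKM, and Kif5b, the ubiquitous kinesin-1 heavy chain, at 120 ± 2.73 RPKM. Kif3a, the shared subunit of heterotrimeric kinesin-2, stood at 80.4 ± 3.27 RPKM. The 2 neuronal kinesin-1 heavy chains and the synaptic vesicle precursor motors had similar levels: 55.5 ± 7.38 RPKM for Kif5a, 51.1 ± 9.04 for Kif5c, 50.8 ± 4.64 for Kif1a and 44.1 ± 8.91 for Kif1b, and these neighbours did not differ beyond their SDs. Dync1h1, the heavy chain that forms the dynein motor, stood at 22 ± 3.56 RPKM. At the other end, the 5 detected division kinesins Kif4, Kif15, Kif18a, Kif20b and Kif22 were all below 1 RPKM, from 0.0714 for Kif18a to 0.631 for Kif22. Members of other roles lay in the same range, namely Kif24 at 0.182 RPKM, Kif21b, Kif7, Dynlt1c, Kif9, Klc2 and, highest, Dynlt1f at 0.930 RPKM. The genes just above and below the count minimum were both division kinesins, Kif18a with a mean of 11.5 counts and Kif14 with 8.53. The 13 genes under the minimum also include Kif17, Dynlt1a, Kif26a, Klc3, Kif2c, Dynlrb2, Kif6, Kif27, Kif28 and Kif18b, with means from 7.80 down to 1.47 counts, and Kif12 and Kif2b with 0 in every library. Levels per length rest on the exonic length in the table, which also counts exons found only in noncoding transcripts, and the protocol primes at the poly(A) tail, so they rank genes roughly.

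**Figure D1:**
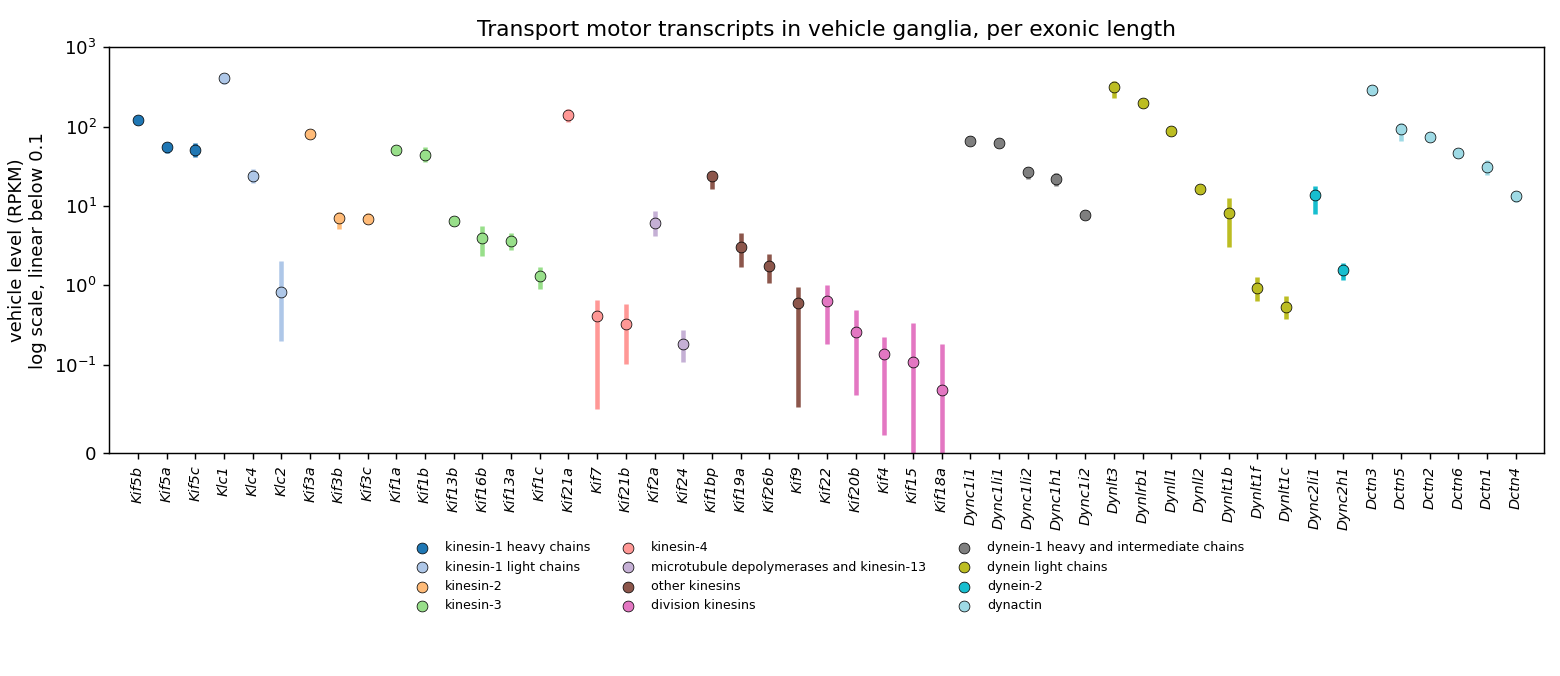
Level of each of the 49 members in the 5 vehicle TG, in RPKM on a scale that is logarithmic above 0.1 and linear below it, grouped and coloured by role. Points are means and bars run from the lowest to the highest sample. Klc1, Dynlt3 and Dctn3 are highest, and the 5 division kinesins lie below 1 RPKM with 7 members of other roles.

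Against vehicle, 1 of the 49 members changed with RvD6si in the quasi-likelihood test of edgeR at an adjusted p of 0.05: Dync1i2, which rose. Over all 16567 genes tested the same rule called 0.67%. With RvD6, 0 members changed, as did 0 of all genes tested (0.0%), while at an unadjusted p under 0.05 edgeR had 10 members and DESeq2 called 1 member after adjustment, again Dync1i2. Between the isomers edgeR called 0 members against 0.235% of all genes, with 7 members at an unadjusted p under 0.05. DESeq2 called 1 member there, Dctn2, against 0.936% of the genes to which it gave an adjusted p. DESeq2 called 3 members with RvD6si, Dync1i2, Dynll1 and Dctn3, against 8.13% of such genes, and its single member with RvD6 stood against 1.92%. It gave no adjusted p to 12 of the 49 members in the RvD6si comparison, and its 3 calls are 8.11% of the other 37, near the share over all genes.

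At an unadjusted edgeR p under 0.05, 4 members were higher and 6 lower with RvD6si, against 8.69% and 7.3% of all genes, which are shares of 8.16% and 12.2% of the members. With RvD6 the counts were again 4 higher and 6 lower, against 7.63% and 5.99% of all genes. Between RvD6si and RvD6 there were 7 members higher and 0 lower, against 4.18% and 4.64% of all genes. The 7 are Dctn1, Dctn2, Dync1i1, Dync1i2, Dync1li1, Kif13a and Klc1, and 5 of them encode subunits of dynein-1 or dynactin. The 12 sensory neuron genes had a median log2 fold change of 0.31 in the same comparison, with 2 higher and 0 lower at an unadjusted p under 0.05, and of -0.28 with RvD6 against vehicle. The part of the neuronal RNA content in the member counts was not tested. The median log2 fold change of the 49 members was 0.10 with RvD6si and -0.04 with RvD6, against 0.02 and 0.02 over all genes tested. Both comparisons with vehicle share the vehicle samples, so their values are given side by side and not as independent evidence.

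**Figure D2:**
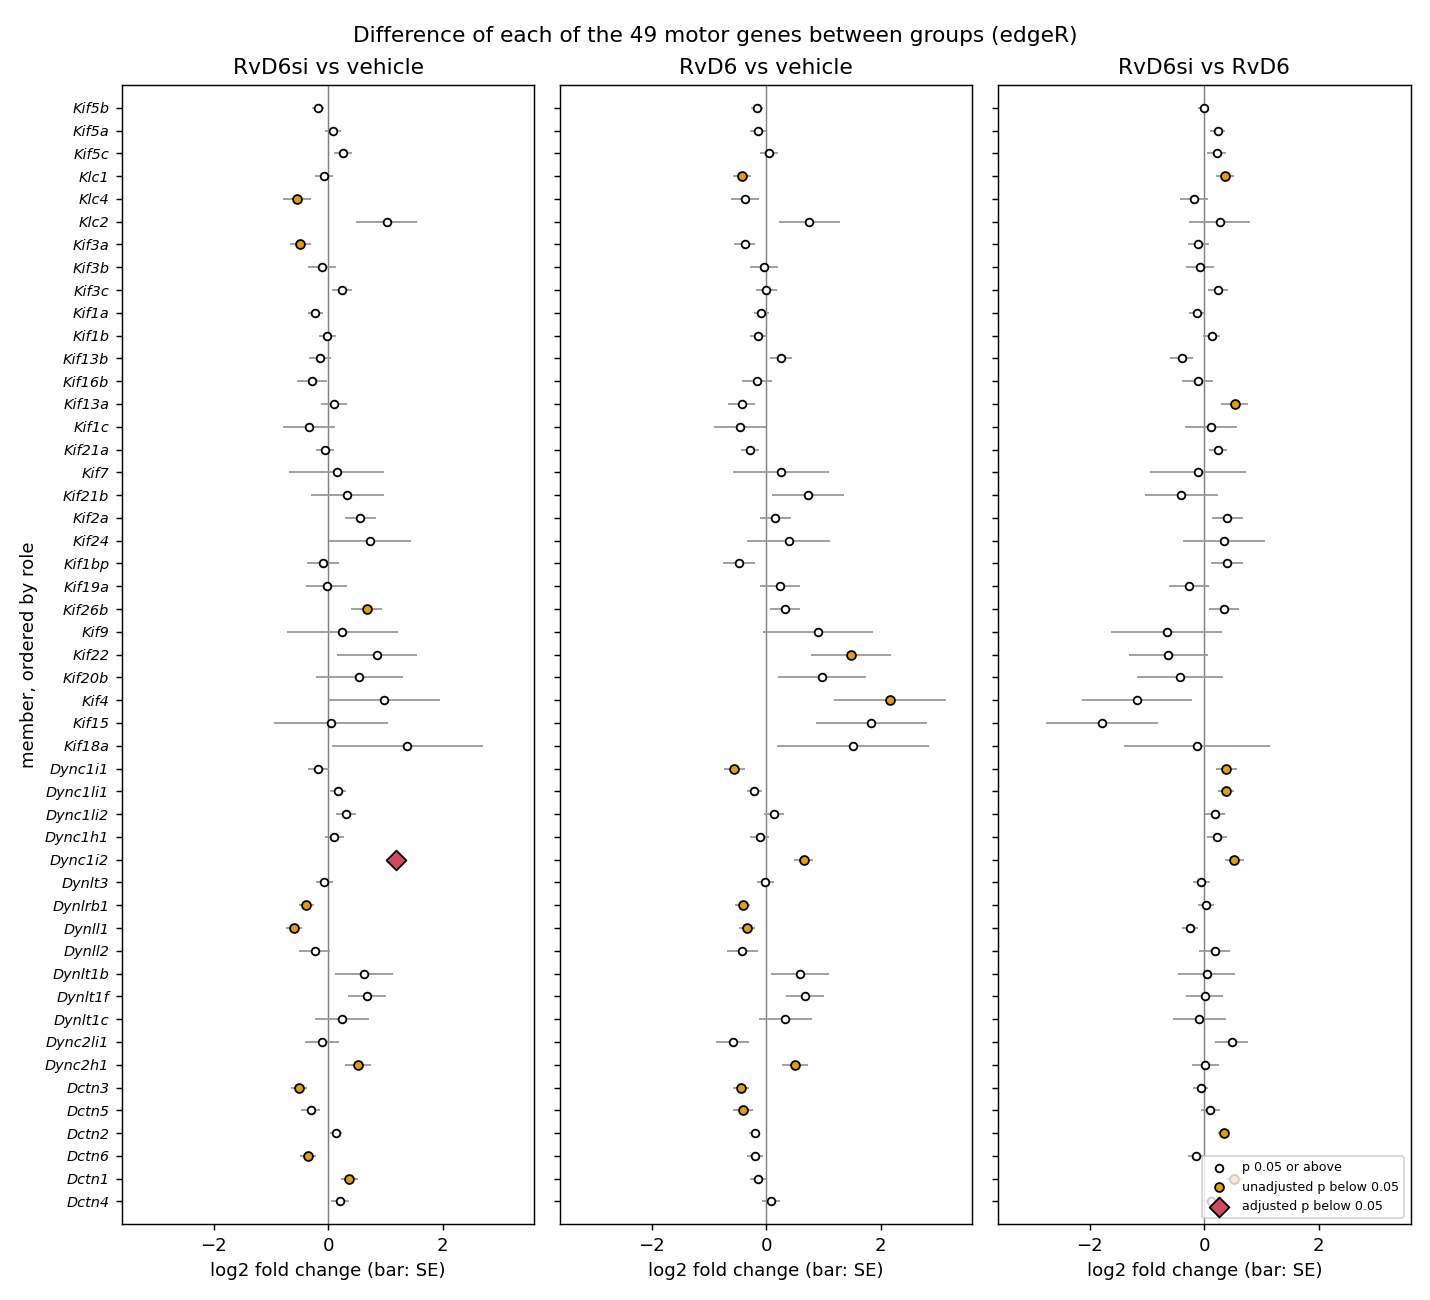
Log2 fold change of each of the 49 members, ordered by role, in the 3 comparisons, with the edgeR standard error as a bar. Open circles have an unadjusted p of 0.05 or above, orange circles an unadjusted p below 0.05 and the diamond an adjusted p below 0.05, which Dync1i2 alone reached, with RvD6si.

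Dync1i2, 1 of the 2 intermediate chains of dynein-1, showed the largest difference from vehicle among members of at least 200 counts. The intermediate chains bind dynactin and form the base on which the light chains sit, and the mouse has 2 genes for them. Dync1i1 is mainly neuronal and Dync1i2 is expressed in most cells. The genes lie on GRCm38 at chr6:5725639-6028039 and chr2:71211706-71263303, both on the plus strand. In vehicle the normalized counts of Dync1i2 (counts divided by the DESeq2 size factors) were 451, 448, 528, 478 and 414. With RvD6 they were 822, 789, 558, 917 and 602, and with RvD6si 1411, 916, 941, 831 and 1182. All 10 lipid-treated samples lay above all 5 vehicle samples, and the RvD6si and RvD6 ranges overlapped. The rise with RvD6si was 1.18 ± 0.17 on the log2 scale (edgeR estimate ± SE), 2.27-fold, with an edgeR adjusted p of 0.0127 and a DESeq2 adjusted p of 1.14e-07. With RvD6 the difference was 0.66 ± 0.17, with adjusted p of 0.137 by edgeR and 0.0182 by DESeq2. The rise with RvD6si was 1.02 with the length trend described below removed (adjusted p = 0.0176), and 1.15 without RvD6 replicates 8 and 9 and RvD6si replicate 15 (adjusted p = 0.0132). One library decided the call: without RvD6si replicate 11, the highest sample, the edgeR adjusted p was 0.0507 at a log2 fold change of 1.06.

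For Dync1i1 no difference passed the test. Its normalized counts were 1509, 1496, 1709, 1863 and 1969 in vehicle, 1566, 1174, 1408, 904 and 819 with RvD6, and 1457, 1250, 1901, 1750 and 1239 with RvD6si. The groups overlapped, and the lowest samples, RvD6 replicates 9 and 10, were also the lowest for the sensory neuron list, whose part in this was not tested. The log2 fold change was -0.55 ± 0.18 with RvD6 (edgeR adjusted p = 0.200) and -0.17 ± 0.18 with RvD6si (adjusted p = 0.694). Within each sample the log2 ratio of Dync1i1 to Dync1i2 per length was 2.91 to 3.46 in vehicle, 1.19 to 2.55 with RvD6 and 1.26 to 2.29 with RvD6si. Vehicle did not overlap with either lipid, and the mean ratio was 1.23 lower with RvD6 and 1.35 lower with RvD6si. Each difference had a two-sided exact permutation p of 0.00794, the smallest that 5 against 5 samples allow, and an adjusted p of 0.0833 over the 21 tests of 7 paralog pairs in 3 comparisons. Dync1i2 made up 21.5 ± 2.61% of the counts of the pair in vehicle, 39.1 ± 8.31% with RvD6 and 41.1 ± 8.21% with RvD6si (SD, n = 5). The ratio did not separate the isomers, with a difference of -0.12 and a permutation p of 0.730.

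Because Dync1i2 had the clearest difference, the 250 bases before the RefSeq start site of each intermediate chain are shown (GRCm38.p6, plus strand, 5′ to 3′, chr2:71211456-71211705 and chr6:5725389-5725638). They are joined by the upstream windows of Dynll1 and Dctn3, which had the lowest p among the lower members (minus strand, chr5:115300991-115301240 and chr4:41723164-41723413). Capitals mark matches, on either strand, to the cAMP response element (TGACGTCA), its core site (TGACG), the Sp1 box (GGGCGG), the CCAAT box, the TATA box (searched as TATAAA) and the E-box (searched as CACGTG). The core site also counts where it lies inside the full element.
Dync1i2: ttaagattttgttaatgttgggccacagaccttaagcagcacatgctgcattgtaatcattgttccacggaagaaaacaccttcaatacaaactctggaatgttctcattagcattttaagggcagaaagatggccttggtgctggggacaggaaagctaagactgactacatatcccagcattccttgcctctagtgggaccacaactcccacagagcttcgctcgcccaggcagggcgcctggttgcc
Dync1i1: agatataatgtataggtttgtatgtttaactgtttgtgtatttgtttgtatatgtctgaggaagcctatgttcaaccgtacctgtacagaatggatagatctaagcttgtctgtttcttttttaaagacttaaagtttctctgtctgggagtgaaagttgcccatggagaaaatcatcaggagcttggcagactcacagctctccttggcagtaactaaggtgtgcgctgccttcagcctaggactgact
Dynll1: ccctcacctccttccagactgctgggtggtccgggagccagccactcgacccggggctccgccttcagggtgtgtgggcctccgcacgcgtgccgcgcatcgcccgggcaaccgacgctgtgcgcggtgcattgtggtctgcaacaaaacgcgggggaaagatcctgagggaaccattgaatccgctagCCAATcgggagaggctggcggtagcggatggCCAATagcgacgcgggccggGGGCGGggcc
Dctn3: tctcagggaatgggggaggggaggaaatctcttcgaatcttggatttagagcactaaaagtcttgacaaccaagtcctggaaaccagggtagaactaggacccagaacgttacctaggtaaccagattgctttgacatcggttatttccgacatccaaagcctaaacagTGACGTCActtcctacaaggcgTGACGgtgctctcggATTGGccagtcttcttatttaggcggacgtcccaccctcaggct
Neither intermediate chain window held any of these letters. Dynll1 held 2 matches to the CCAAT box and 1 to the Sp1 box, in a window of 68.8% GC against 48.4% for Dync1i2 and 40.8% for Dync1i1. Dctn3 held 1 cAMP response element, a further core site and 1 match to the CCAAT box on the other strand. In the same 250 bases of all 32851 promoters in the RefSeq table, 1.55% held the full element, 17.8% the core site, 32.7% the Sp1 box, 33.8% the CCAAT box, 12.4% the TATA box and 6.02% the E-box. Of the members 36 had an entry, with 43 start sites, and 28 of these 43 windows held the Sp1 box, 17 the core site, 15 the CCAAT box, 3 the full element, 3 the TATA box and 2 the E-box. As shares of the 43 windows these are 65.1%, 39.5%, 34.9%, 6.98%, 6.98% and 4.65%. A second RefSeq start site of Dync1i2 lies downstream and is not shown. These matches describe letters only, and nothing here measured binding.

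The gene count of Dync1i2 mixes several kinds of transcript. Its 8280 exonic bases come from 12 GENCODE transcripts, of which 8 are protein-coding and 3 are retained introns, and the protein-coding transcripts cover 34.3% of those bases. For Dync1i1 the protein-coding share is 94.3% of 3572 bases. The table gives 1 number per gene, so which Dync1i2 transcripts rose was not measured.

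The other dynein-1 chains moved little. Dync1h1 had 2900, 2837, 2183, 2405 and 1998 normalized counts in vehicle, 2169, 2980, 2641, 1702 and 1999 with RvD6, and 2747, 3537, 2514, 1966 and 2576 with RvD6si. All 3 groups overlapped, with log2 fold changes of -0.12 ± 0.17 with RvD6 and 0.11 ± 0.17 with RvD6si and edgeR adjusted p of 0.812 and 0.811. The 95% intervals were -0.47 to 0.24 and -0.25 to 0.46, so a change of Dync1h1 as large as that of Dync1i2 with RvD6si lies outside them. The light intermediate chains Dync1li1 and Dync1li2 tether dynein to cargo adaptors, and neither passed the test in any comparison. Dync1li1 had 1612, 1800, 1776, 1249 and 1225 normalized counts with RvD6 against 2077, 1629, 2336, 2121 and 1764 with RvD6si. The difference was 0.38 ± 0.14 (edgeR adjusted p = 0.380), and 3 of 5 RvD6si samples lay above every RvD6 sample. All 5 heavy, intermediate and light intermediate chains had a positive estimate for RvD6si over RvD6, from 0.18 for Dync1li2 to 0.53 for Dync1i2. None passed the adjusted threshold, and the 7 light chains were split, with 4 above 0 and 3 below.

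No light chain of dynein passed the edgeR test, and 2 of the 3 abundant ones had lower values in both lipid groups. Dynll1 encodes the LC8 light chain, a dimerization hub used by dynein and many other proteins. Its normalized counts were 2441, 2110, 2517, 2547 and 2812 in vehicle, 1985, 1904, 2223, 1746 and 2081 with RvD6, and 1369, 2280, 1631, 1443 and 1554 with RvD6si. With RvD6si 4 of 5 samples lay below every vehicle sample, and replicate 12 did not. The log2 fold change was -0.59 ± 0.14 with RvD6si, with adjusted p of 0.0569 by edgeR and 0.00265 by DESeq2, and without replicate 12 it was -0.73 with an edgeR adjusted p of 0.0152. With RvD6 it was -0.34 ± 0.14 (edgeR adjusted p = 0.306). Dynlrb1, the roadblock light chain, had 1487, 1261, 1484, 1614 and 1402 normalized counts in vehicle and 1232, 1104, 1213, 947 and 1010 with RvD6, which do not overlap. With RvD6si its counts were 852, 1352, 1059, 1134 and 1188, and 4 of 5 samples lay below all vehicle samples. The log2 fold changes were -0.41 ± 0.13 with RvD6 and -0.38 ± 0.13 with RvD6si, with edgeR adjusted p of 0.200 and 0.168. Dynlt3, the most abundant light chain, kept overlapping groups with means of 5866 ± 1056 in vehicle, 5862 ± 428 with RvD6 and 5614 ± 1134 with RvD6si. Dynlt1b, Dynlt1c and Dynlt1f have near-identical copies whose reads the counting may have split or dropped, so their group means, from 14.7 to 70.3 normalized counts, are uncertain. Dynll2, the second LC8 gene, had means of 324 ± 32.6 in vehicle, 245 ± 82.0 with RvD6 and 276 ± 108 with RvD6si, and the ratio of Dynll1 to Dynll2 passed no test.

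The estimates of the dynactin subunits differed in sign, and none passed the edgeR test. Dctn3 encodes p24, a small subunit of the shoulder that joins the dynein-binding arm to the actin-like filament. Its normalized counts were 2036, 1917, 2466, 2269 and 2008 in vehicle, 1874, 1507, 1666, 1367 and 1516 with RvD6, and 1164, 1813, 1505, 1348 and 1697 with RvD6si. Every lipid-treated sample lay below every vehicle sample. The log2 fold change was -0.51 ± 0.14 with RvD6si (adjusted p of 0.0787 by edgeR and 0.00855 by DESeq2) and -0.44 ± 0.14 with RvD6 (0.186 and 0.0700). With the length trend removed the RvD6si estimate was -0.30 with an edgeR adjusted p of 0.211. The annotation places Il11ra1 on the opposite strand over part of Dctn3, and the counting did not use strand. Dctn6, a pointed-end subunit, was 877, 892, 1066, 985 and 1014 in vehicle against 715, 858, 669, 805 and 777 with RvD6si, which do not overlap, at -0.34 ± 0.14 with an edgeR adjusted p of 0.230. Dctn5, its pointed-end partner, was 1265 to 2115 in vehicle and 1133 to 1636 with RvD6, at -0.41 ± 0.17 with an edgeR adjusted p of 0.306.

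Dctn1 (p150Glued, which binds the intermediate chains and microtubules) and Dctn2 (dynamitin) had higher values with RvD6si than with RvD6. The estimates for Dctn3 and Dctn6 in that comparison were -0.07 ± 0.14 and -0.14 ± 0.14. Dctn1 had 1544, 1752, 1161, 1485 and 1379 normalized counts in vehicle, 1453, 1469, 1414, 1263 and 1103 with RvD6, and 2115, 1447, 2117, 1738 and 2092 with RvD6si. Of the RvD6si samples 4 of 5 lay above every RvD6 sample, at 0.51 ± 0.14 between the isomers (adjusted p of 0.224 by edgeR and 0.0534 by DESeq2). Against vehicle the RvD6si difference was 0.37 ± 0.14 with an edgeR adjusted p of 0.205. Dctn2 had 2664, 2439, 2625, 2370 and 2707 in vehicle, 2350, 2134, 2414, 2211 and 2166 with RvD6, and 2714, 2785, 2888, 3014 and 2728 with RvD6si. Here every RvD6si sample lay above every RvD6 and every vehicle sample. The difference between the isomers was 0.33 ± 0.10, with adjusted p of 0.249 by edgeR and 0.00516 by DESeq2. Against vehicle the RvD6si estimate was 0.14 ± 0.10 with an edgeR adjusted p of 0.522, and those ranges were separated narrowly.

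Members can also be counted by whether the samples of 2 groups overlap, which picks out partly different genes. With RvD6si 2 members lay wholly above vehicle (Dync1i2 and Dctn2) and 3 wholly below (Dctn3, Dctn6 and Kif3a), against 2.48% and 2.4% of all genes tested. With RvD6 the members were Dync1i2 and Kif4 above and Dctn3 and Dynlrb1 below, against 2.25% and 1.47%. Kif4 had 9, 4, 1, 9 and 9 raw counts in vehicle and met the minimum mean of 10 only through samples of other groups. Its separation from vehicle is therefore tied to how members were chosen. Between RvD6si and RvD6 only Dctn2 separated upward and 0 members downward, against 0.652% and 1.09%. As shares of the 49 members these counts are 4.08% and 6.12% with RvD6si, 4.08% and 4.08% with RvD6, and 2.04% and 0% between the isomers.

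**Figure D3:**
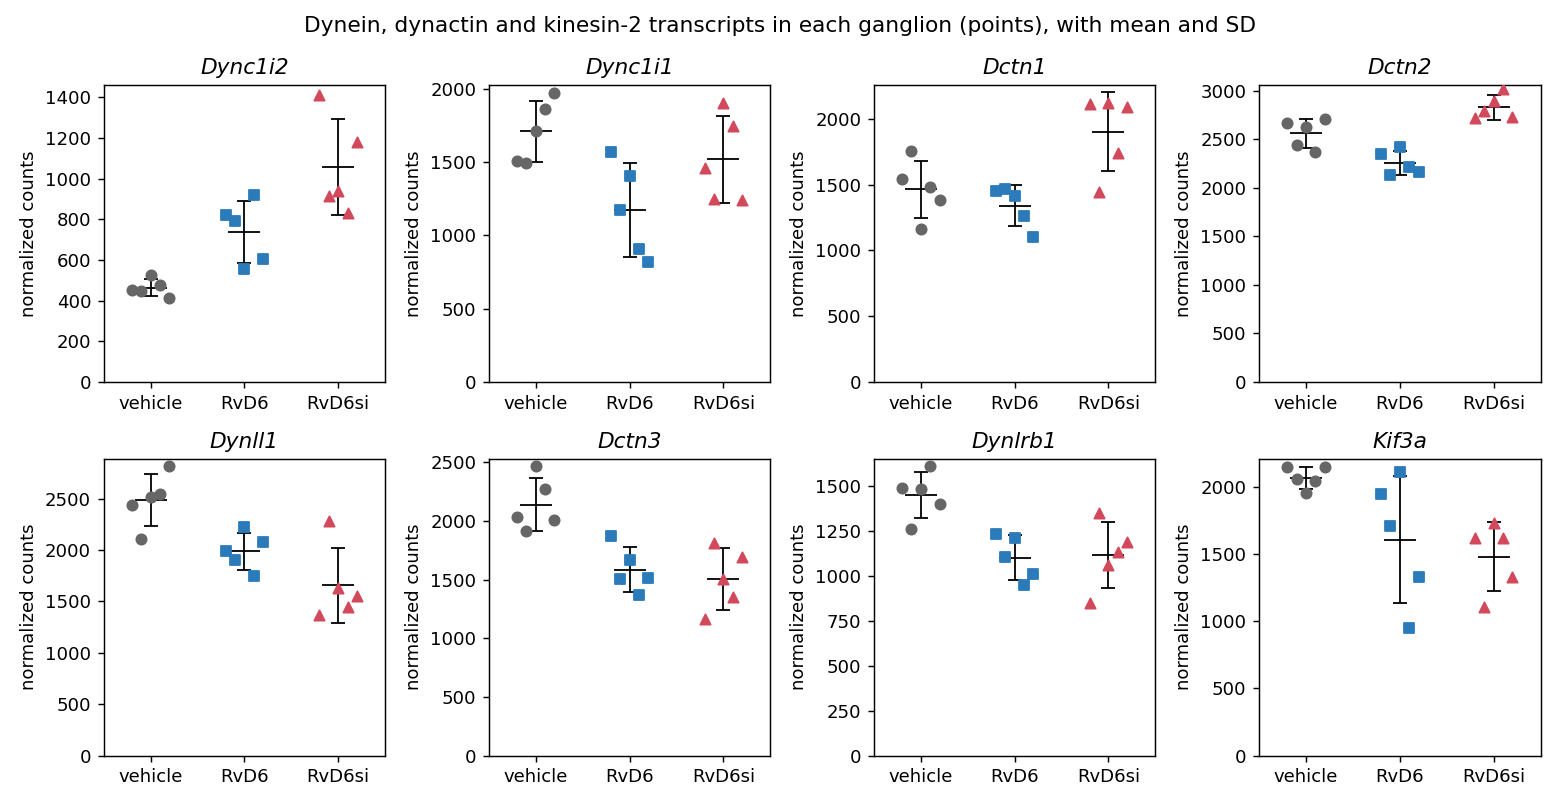
Normalized counts of 8 members in every TG (points, by group along the axis), with the group mean and SD. All 10 lipid-treated samples lie above vehicle for Dync1i2 and below it for Dctn3, Dctn2 separates RvD6si from both other groups, and Dync1i1 overlaps throughout.

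Dynein-2, the return motor of intraflagellar transport in cilia, was represented by its heavy chain Dync2h1 and light intermediate chain Dync2li1. Dync2h1 had 180, 222, 193, 136 and 187 normalized counts in vehicle, 242, 355, 203, 192 and 321 with RvD6, and 274, 382, 240, 153 and 275 with RvD6si. Of the RvD6si samples 4 of 5, and of the RvD6 samples 3 of 5, lay above all vehicle samples, at 0.52 ± 0.23 and 0.50 ± 0.23 with edgeR adjusted p of 0.275 and 0.353. Dync2h1 is long (16348 exonic bases). With the length trend removed its estimates were 0.37 and 0.30, with unadjusted edgeR p of 0.0818 and 0.156. Dync2li1 overlapped in all groups, with means of 186 ± 52.7 in vehicle, 125 ± 50.2 with RvD6 and 173 ± 43.0 with RvD6si. Kif3a, the kinesin-2 subunit used both in cilia and in axons, had 2144, 2058, 1951, 2039 and 2144 in vehicle, 1949, 1705, 2106, 947 and 1325 with RvD6, and 1616, 1105, 1730, 1617 and 1330 with RvD6si. The RvD6si samples all lay below vehicle, at -0.49 ± 0.18 with an edgeR adjusted p of 0.194. Of the RvD6 samples 4 of 5 did, replicate 9 being lowest, at -0.38 ± 0.18 with an adjusted p of 0.373. Its partners Kif3b and Kif3c had overlapping groups in both comparisons. Of 22 intraflagellar transport genes listed as neighbours of these motors, edgeR called 0 in any comparison, with 1 higher and 4 lower at an unadjusted p under 0.05 with RvD6si, 1 and 2 with RvD6 and 0 between the isomers. As shares of the 22 these are 4.55% and 18.2% with RvD6si and 4.55% and 9.09% with RvD6. Over all genes the shares were 8.69% and 7.3% with RvD6si, 7.63% and 5.99% with RvD6, and 4.18% and 4.64% between the isomers. DESeq2 called 2 lower with RvD6si, which is 9.52% of the 21 to which it gave an adjusted p, near the 8.13% over all genes. They are Ift20, which also works at the Golgi, at 793 ± 86.9 normalized counts in vehicle and 529 ± 105 with RvD6si, and Ift43 at 109 ± 17.9 and 66.7 ± 4.50.

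Among the kinesin-1 heavy chains, the main motors of fast anterograde transport, no group difference passed the test. Kif5a had 3162, 3129, 2559, 2308 and 2744 normalized counts in vehicle, 2686, 2826, 2883, 2294 and 1990 with RvD6, and 3507, 3027, 3038, 2803 and 2428 with RvD6si. The groups overlapped, with log2 fold changes of 0.09 ± 0.14 with RvD6si, -0.15 ± 0.14 with RvD6 and 0.23 ± 0.14 between the isomers, whose 95% intervals were -0.20 to 0.37, -0.43 to 0.14 and -0.05 to 0.52. Kif5b, the most even member in vehicle with a coefficient of variation of 2.26%, was 6884 ± 155 there, 6219 ± 603 with RvD6 and 6128 ± 596 with RvD6si. Per length, Kif5b made up 53.2 ± 3.85% of the 3 heavy chains in vehicle, 51.2 ± 3.88% with RvD6 and 47.2 ± 2.27% with RvD6si, and the neuronal Kif5a and Kif5c made up the rest. The ratios of Kif5c and Kif5a to Kif5b were 0.43 and 0.26 higher on the log2 scale with RvD6si than in vehicle, with two-sided exact permutation p of 0.0397 and 0.0476 and an adjusted p of 0.250 for both. Klc1, the light chain that recognizes cargo, had 10029, 11307, 12095, 12396 and 13450 normalized counts in vehicle, 10490, 8508, 11726, 6650 and 7058 with RvD6, and 11196, 9624, 13889, 12700 and 9426 with RvD6si. Its lowest samples were again RvD6 replicates 9 and 10, and the RvD6 difference was -0.43 ± 0.16 with an edgeR adjusted p of 0.260. Part of Klc1 is overlapped by Xrcc3 on the opposite strand. Klc4 was 328 to 504 in vehicle and 189 to 355 with RvD6si, at -0.54 ± 0.24 with an edgeR adjusted p of 0.283. Klc2 stayed low, at 24.8 ± 20.6 in vehicle and 51.2 ± 23.7 with RvD6si, at 1.02 ± 0.54 with an edgeR adjusted p of 0.367.

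Kinesin-3 motors move synaptic and dense core vesicle precursors. Kif1a had 3681, 3714, 3280, 3355 and 2972 normalized counts in vehicle, 2728, 3601, 4050, 2794 and 3020 with RvD6, and 3476, 2824, 2830, 3028 and 2495 with RvD6si. The groups overlapped, although 3 of 5 RvD6si samples lay below all vehicle samples. The log2 fold change was -0.22 ± 0.13 with RvD6si, -0.08 ± 0.13 with RvD6 and -0.13 ± 0.13 between the isomers, with edgeR adjusted p of 0.429, 0.824 and 0.808. With the length trend removed the Kif1a estimates were -0.37 with RvD6si and -0.23 with RvD6, with edgeR adjusted p of 0.177 and 0.453. Kif1b was 5572 ± 1119, 5115 ± 760 and 5549 ± 940 in vehicle, RvD6 and RvD6si. Kif13a, an endosome motor, was 115 to 211 with RvD6 and 140 to 316 with RvD6si, a difference of 0.53 ± 0.23 with an edgeR adjusted p of 0.519. Kif26b, an atypical kinesin without ATPase activity, had 244, 263, 115, 136 and 173 in vehicle and 351, 237, 232, 295 and 377 with RvD6si, at 0.67 ± 0.27 with an edgeR adjusted p of 0.221. Kif2a, a microtubule depolymerase of axon branches, was 193 to 391 in vehicle and 288 to 656 with RvD6si, at 0.56 ± 0.27 with an adjusted p of 0.318. No member of the kinesin-3, kinesin-4 or kinesin-13 groups passed the test in any comparison.

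Division kinesins act on the spindle and chromosomes of dividing cells. Kif4, a chromosome kinesin, had 6, 4, 1, 9 and 7 normalized counts in vehicle, 19, 41, 10, 29 and 26 with RvD6, and 6, 0, 1, 3 and 47 with RvD6si. All RvD6 samples lay above all vehicle samples, and in RvD6si only replicate 15 did. Kif4 met the count minimum only through lipid-treated samples, so this separation is tied to how members were chosen. The RvD6 difference was 2.16 ± 0.98 on the log2 scale with an edgeR adjusted p of 0.345. With RvD6si it was 0.98 ± 0.98, and -1.19 without replicate 15. Kif22 had 6, 18, 35, 18 and 34 in vehicle, 201, 21, 13, 24 and 52 with RvD6, and 21, 46, 18, 21 and 98 with RvD6si, at 1.48 ± 0.70 with RvD6 and an edgeR adjusted p of 0.365. Without RvD6 replicate 6 the Kif22 estimate was 0.28. The 5 division kinesins together summed to 30.3 to 70.7 normalized counts in vehicle, 89.2 to 322 with RvD6, 33.9 to 111 in the first 4 RvD6si replicates and 195 in replicate 15. This sum includes Kif4 and Kif18a, with vehicle means of 5.42 and 5.04 normalized counts. Kif18a, like Kif4, met the count minimum only through lipid-treated samples. The low vehicle sums are therefore also tied to how members were chosen. RvD6si replicate 13, at 111, lay above RvD6 replicates 8 and 9. The 12 genes of dividing cells, none of them a member here, were at 15.9 to 72.3 CPM in vehicle, 79.5 to 300 CPM with RvD6, 16.1 to 24.5 CPM in the first 4 RvD6si replicates and 227 CPM in replicate 15. None of these 12 genes was at 0 in a whole group. The RvD6 libraries and RvD6si replicate 15 were also the highest in granulocyte precursor and erythroid genes, whereas RvD6si replicate 13 was not, and the part of other cells in the division kinesin values was not tested. Kif4 is overlapped by Pdzd11 on the opposite strand, and at counts this low its SE is near 1 on the log2 scale.

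**Figure D4:**
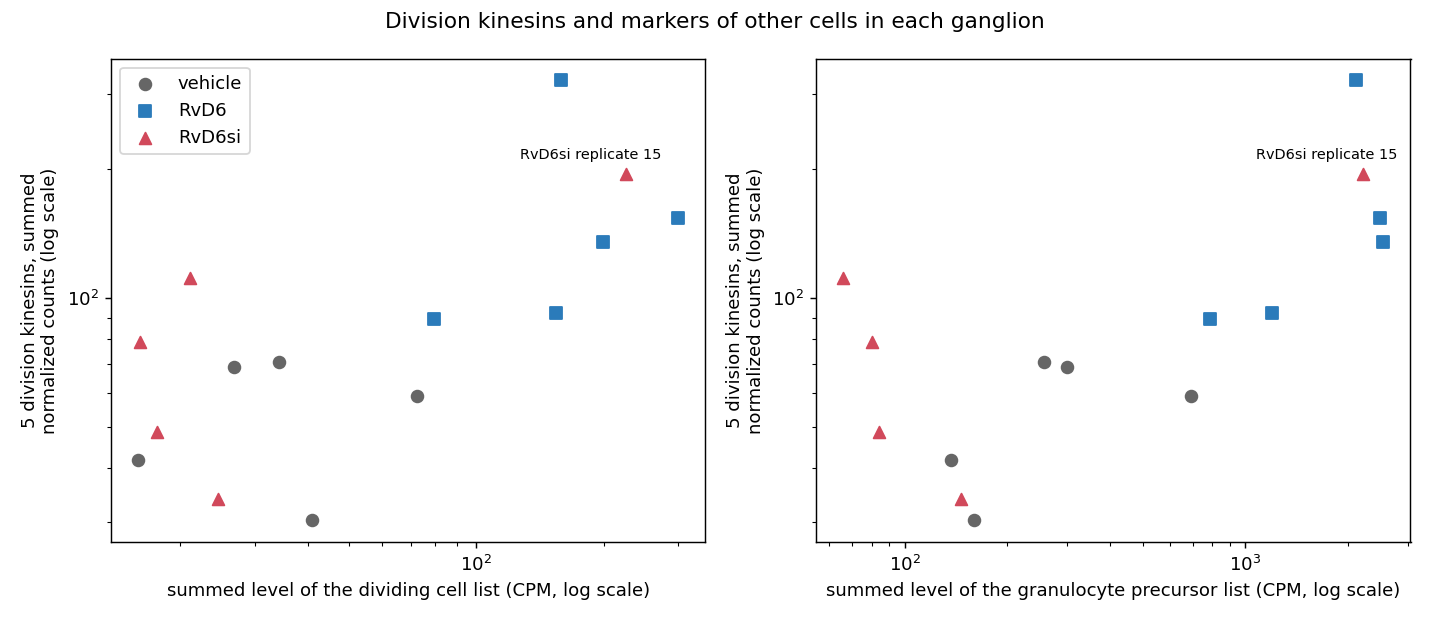
Summed normalized counts of the 5 division kinesins against the summed CPM of 12 dividing cell genes (left) and 12 granulocyte precursor genes (right) in each of the 15 TG, on log axes. The 5 RvD6 samples and RvD6si replicate 15 lie to the right of every vehicle sample in both panels. The sum includes Kif4 and Kif18a, which met the count minimum only through lipid-treated samples, so its low vehicle values are tied to how members were chosen.

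Fold changes of the motors followed the exonic length of the genes, as they did over the whole table. Across the 49 members the Spearman correlation between log2 fold change and length was 0.36 with RvD6si and 0.38 with RvD6, against 0.29 and 0.25 across all genes tested and 0.02 for members between the isomers. Genes are not independent replicates, and these values describe 1 set of libraries made with the same protocol. The 9 members of up to 3000 bases had a median log2 fold change of -0.30 with RvD6si and -0.41 with RvD6, with 8 of 9 below 0 in each. The 24 members over 6000 bases had medians of 0.23 and 0.07. When the trend over all genes was removed from each library, the medians were -0.17 and -0.29 for the short members and 0.08 and -0.08 for the long ones. The correlation across members was then 0.17 with RvD6si and 0.20 with RvD6. For members of at least 200 counts it was 0.34 and 0.35, from 0.58 and 0.65 before. Part of the relation with length therefore remained in the members, although it was near 0 over all genes. Dynll1 (3890 bases) was not smaller after removal, at -0.65, while Dynlrb1 (1009 bases) was at -0.17 with RvD6si.

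**Figure D5:**
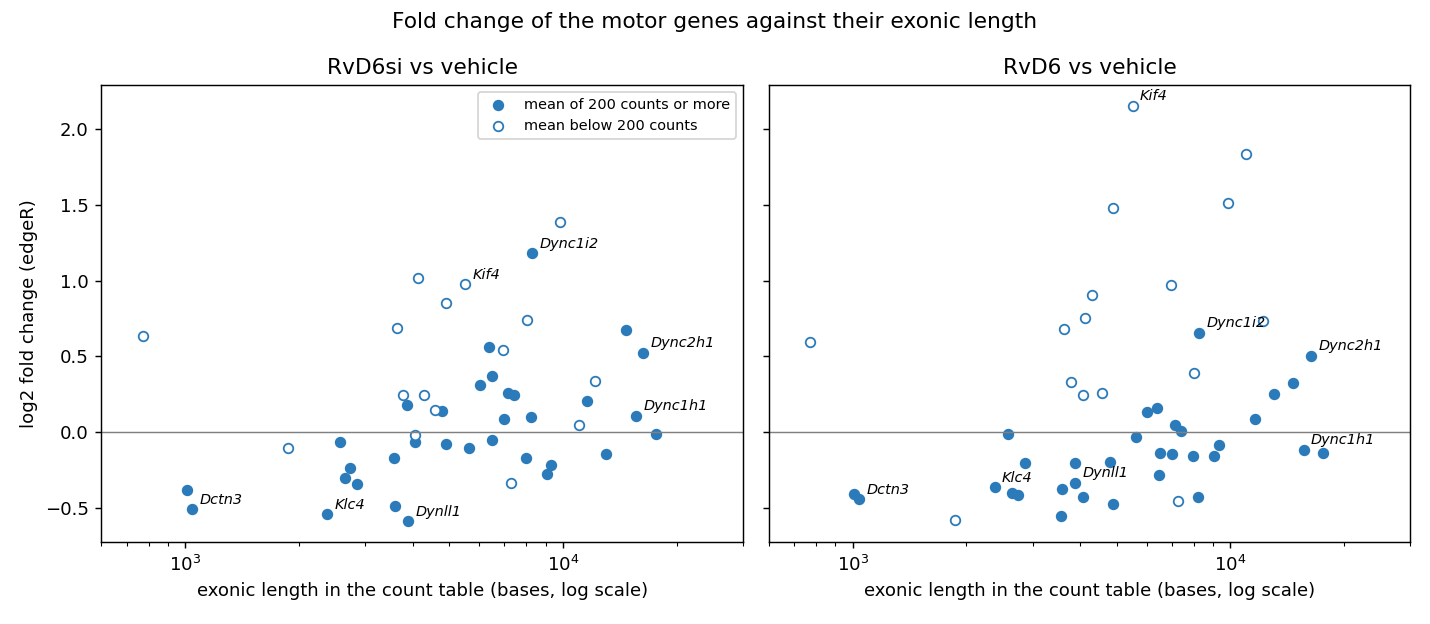
Log2 fold change of the 49 members against exonic length (log axis) with RvD6si (left) and RvD6 (right). Filled points have a mean of 200 counts or more. Short members lie mostly below 0, and Dync1i2 lies above the other filled points in both panels.

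The stereoisomers RvD6 and RvD6si, given on the same schedule, could be compared for every member, and this is 1 pair of compounds. No member differed between them at an edgeR adjusted p of 0.05. The estimates for the 5 heavy, intermediate and light intermediate chains of dynein-1 were higher with RvD6si. Of the 7 dynein light chains 4 were higher and 3 lower, with a median of 0.0045. Of the 6 dynactin subunits 4 were higher and 2 lower, Dctn3 at -0.07 and Dctn6 at -0.14. Beside these, 28 of the 49 members and 22 of the 33 with at least 200 counts had a positive estimate. The sensory neuron list, also had a positive median of 0.31 in the same comparison, and its part in these values was not tested. Dync1i2 differed by 0.53 ± 0.17 (95% interval 0.17 to 0.88, edgeR adjusted p = 0.309), with 3 of 5 RvD6si samples above all RvD6 samples. Klc1 differed by 0.36 ± 0.16 and Dync1i1 by 0.38 ± 0.18, with edgeR adjusted p of 0.507 and 0.564. For members that did not pass, the 95% intervals bound the difference: -0.41 to 0.14 for Kif1a, -0.13 to 0.58 for Dync1h1 and -0.55 to 0.03 for Dynll1, of which 4 of 5 RvD6si samples lay below every RvD6 sample. A missed threshold does not show that the isomers act alike on these genes.

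Of 56 adaptor and regulator genes listed beside the motors, 52 were tested, and edgeR called 1 higher and 0 lower with RvD6si, 0 with RvD6 and 0 between the isomers. At an unadjusted p under 0.05 edgeR had 9 higher and 1 lower, 6 and 3, and 6 and 2. As shares of the 52 these are 17.3% and 1.92% with RvD6si, 11.5% and 5.77% with RvD6 and 11.5% and 3.85% between the isomers, beside 8.69% and 7.3%, 7.63% and 5.99%, and 4.18% and 4.64% of all genes. Their median log2 fold change was 0.18 with RvD6si and 0.09 with RvD6. The gene called was Arl8b, the lysosomal GTPase that recruits kinesin-1 and Kif1b, at 1735 ± 111 normalized counts in vehicle, 2066 ± 191 with RvD6 and 2642 ± 324 with RvD6si. Its rise with RvD6si was 0.60 ± 0.12 (edgeR adjusted p = 0.0281), and every RvD6si sample lay above every vehicle sample. DESeq2 also called Capza1, a capping protein of the dynactin filament, Rhot1, the mitochondrial Miro1 that couples motors to mitochondria, and Mapre3, a plus-end binding protein, all higher with RvD6si. With Arl8b these 4 calls are 8.70% of the 46 listed genes given an adjusted p, near the 8.13% over all genes. The edgeR estimates of Capza1, Rhot1 and Mapre3 were 0.75 ± 0.18, 0.62 ± 0.18 and 1.13 ± 0.35 with adjusted p of 0.0631, 0.0968 and 0.116. With RvD6 DESeq2 called 1 of the 52, Nin, a centrosomal dynein activator, at 137 ± 29.2 in vehicle and 248 ± 67.2 with RvD6. This is 1.92% of the 52, the same as the 1.92% over all genes.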

How the data were processed

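RNA from 15 right TG was reverse transcribed from the poly(A) tail with a Smart-seq2 protocol, amplified and sequenced without strand information. The authors aligned the reads to GRCm38 with Rsubread and deposited raw read counts per gene from featureCounts (Subread 1.6.5 and R 3.6.1 in the submitters' processing notes). Here, gene names came from GENCODE M21 on the same genome, which named 55480 of 55573 genes, and genes were kept by edgeR's filterByExpr. Groups were compared with edgeR 4.0.16 quasi-likelihood tests on TMM-scaled counts of all 15 samples in R 4.3.3, with Benjamini-Hochberg adjustment over 16567 genes at a threshold of 0.05. Printed normalized counts were divided by DESeq2 1.42.0 size factors, and RPKM and CPM use TMM library sizes. Ratios of paralogs used a pseudocount of 0.5 and two-sided exact permutation tests. The scripts were tested on simulated counts. Alternatives were DESeq2, other filters and scalings, removal of a lowess trend on gene length and leaving out libraries. The authors' test was DESeq2, used here as an alternative. Named genes were the 3 markers (Kif1a, Kif5a and Dync1h1), members called by either tool, the 5 largest increases and decreases at an unadjusted p below 0.05 for each lipid, the highest member of each role, paralog pairs and the genes nearest the count minimum. The members and gene lists were chosen with earlier results of these data known. Totals of 4125962 to 9903396 counts limit the precision of members with few counts.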

Additional observations from a re-analysis of the deposited data

Results flagged for a closer look

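In 93 groups of 5 samples, 7 held a sample far from the others by Dixon's test, where chance gives about 1 in 20. RvD6si replicate 12 was highest for Dynll1, at 2279.6 normalized counts with the next sample at 1631.1, and for Kif21a, at 7736.6 with the next at 6106.3. RvD6si replicate 11 was highest for Dync1li2, at 2091.5 with the next at 1414.2. RvD6si replicate 15 was highest for Kif4, at 47.1 with the next at 5.6. In the RvD6 group, replicate 6 was highest for Kif22 at 200.9 (next 52.3), replicate 7 was highest for Kif26b at 402.0 (next 214.4), and replicate 9 was lowest for Klc4 at 143.8 (next 327.2). The causes were not tested.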

How the results depend on the processing

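No paired analysis was possible because the replicate numbers of the groups are not shared. Members changed with RvD6si were 1 in the reported test, 3 with DESeq2 on all samples, 4 with DESeq2 on the 2 groups compared and 2 with at least 10 counts in every sample. With RvD6 they were 0, 1 with DESeq2 on all samples and 4 on the 2 groups, and between the isomers 0, 1 and 1. Shares over all genes are given above only for the reported test and for DESeq2 on all samples. The counts under other settings have no such share beside them, so they may only follow more calls among all genes. Requiring at least 10 counts in every sample leaves out members with few counts, so its medians cover fewer than the 49 members. In the reported fit, members of at least 200 counts had medians of -0.06 with RvD6si and -0.16 with RvD6. The median log2 fold change of members with RvD6si was 0.10, and -0.047 with at least 10 counts in every sample and 0.012 with the length trend removed. With RvD6 it was -0.04, and -0.12 and -0.14 under those settings and -0.10 without RvD6 replicates 8 and 9 and RvD6si replicate 15, a setting chosen after seeing the data. Between the isomers it was 0.04, and 0.11 with the length trend removed and 0.11 without those libraries. With the length trend removed the sign turned for 6 of 49 members with RvD6si, among them Kif5a (-0.054) and Dync1h1 (-0.023), for 4 with RvD6 and for 2 between the isomers. Without those libraries it turned for 7, 4 and 5, among them Kif4 with RvD6si (-1.17). None of these members had passed the test. The causes were not tested.

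Leaving out 1 sample at a time, members changed with RvD6si ranged from 0 (without RvD6si replicate 11) to 2 (without RvD6si replicate 12 or RvD6 replicate 9, when Dynll1 was added). The medians ranged from 0.015 to 0.13 with RvD6si, from -0.12 to -0.019 with RvD6 and from 0.027 to 0.17 between the isomers. Members whose groups do not overlap ranged from 5 to 9 with RvD6si (9 without RvD6si replicate 12), 4 to 8 with RvD6 (8 without RvD6 replicate 8) and 1 to 3 between the isomers (3 without RvD6si replicate 12). Leaving out a sample can only add separated genes, among all genes as well as among members. None of these leave-one-out counts, nor those of members changed, has a share over all genes beside it. The higher counts are therefore not a result about the members. With RvD6si the estimate of Dync1h1 ranged from -0.0090 to 0.20, that of Kif4 from -1.19 to 1.32 and the Dync1li1 to Dync1li2 ratio from -0.21 to 0.0021. With RvD6 the ratio differences ranged from -0.011 to 0.25 for Dynll1 to Dynll2, -0.023 to 0.079 for Kif1a to Kif1b and -0.048 to 0.14 for Kif5a to Kif5b. Between the isomers they ranged from -0.29 to 0.049 for Dync1i1 to Dync1i2 and from -0.27 to 0.44 for Klc1 to Klc2.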
